A study of Mus musculus with 12 samples.

Results

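Levels of 4 G-protein-coupled receptor genes, Cnr2, Gpr34, Gpr35 and Gpr146, were followed across 6 groups of mouse macrophages, out of 12393 genes that had a probe set of their own. Cnr2 and Gpr34 were chosen by their low values after lipopolysaccharide (LPS), the outer membrane glycolipid of Gram-negative bacteria that macrophages sense through Toll-like receptor signalling. Gpr35 and Gpr146 were chosen by their difference when interleukin 10 (IL-10), an anti-inflammatory cytokine, was added to LPS. The LPS and IL-10 differences of these 4 genes are therefore given as descriptions with no test, and within a genotype they share the LPS arrays. Other contrasts that these choices did not use were tested. Several of them share arrays with the choices, so that the chosen differences enter them.

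The study placed RNA from macrophages grown out of bone marrow on 12 Affymetrix arrays, 1 array per sample, and its title names the regulation of LPS-induced genes by NF-kB p50 and p105 and by IL-10 as the subject. The cells came from mice of 2 genotypes on the strain labelled 129-SvEv-Tac. IL10-/- cells lack Il10, and p50-/-IL10-/- cells lack Il10 as well as p50. No group had an intact Il10 gene. The gene for p50, Nfkb1, also codes for p105, so "without p50" below stands for the loss of both products, which cannot be told apart. Nfkb1 itself was not analysed here and the genotypes rest on the labels. Marrow cells were cultured for 5 days with 10% serum and 30% medium from L cells, which secrete the growth factor of macrophages. Each genotype was left unstimulated, given LPS at 1 ng/ml, or given the same LPS with IL-10 at 0.3 ng/ml, and RNA was taken after 4 h. Each of the 6 groups held 2 arrays that the labels call biological replicates. The labels do not say whether the replicates came from separate animals or cultures, and p-values here therefore rest on the spread among these arrays, which may be partly technical.

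G-protein-coupled receptors span the membrane, bind a ligand outside the cell and pass the signal to heterotrimeric G proteins inside. In macrophages several of them sense lipids and metabolites released at sites of inflammation. Cnr2 codes for the cannabinoid receptor CB2, which is found mainly on immune cells, couples to inhibitory G proteins and responds to the endocannabinoid 2-arachidonoylglycerol. Gpr34 codes for a receptor of lysophosphatidylserine that is prominent on microglia and other tissue macrophages and belongs to the P2Y12-like branch of the family. Gpr35 codes for a receptor of gut and myeloid cells for which several ligands were proposed, among them the tryptophan metabolite kynurenic acid and lysophosphatidic acid. Gpr146 codes for an orphan receptor, whose ligand is not settled, and in the liver it is linked to blood cholesterol.

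The sequence upstream of the transcription start shows where motifs of NF-kB, which the title names, and of STAT factors and PU.1, chosen here, could lie. RefSeq windows of 250 bases before each annotated start were read on build GRCm38.p6. Entries were found for Cnr2 (2 starts), Gpr35 (2 starts) and Gpr146 (3 starts), all on the + strand. Both strands were searched for the NF-kB consensus, for TTCNNNGAA as the form bound by STAT factors, through which IL-10 signals, and for GAGGAA as a core of the macrophage factor PU.1. Capitals mark the matches in the 4 windows below, which are shown because they hold the matches of these 3 forms or, for Cnr2, which had none, the first start.
Cnr2, first start, chr4:135894939-135895188: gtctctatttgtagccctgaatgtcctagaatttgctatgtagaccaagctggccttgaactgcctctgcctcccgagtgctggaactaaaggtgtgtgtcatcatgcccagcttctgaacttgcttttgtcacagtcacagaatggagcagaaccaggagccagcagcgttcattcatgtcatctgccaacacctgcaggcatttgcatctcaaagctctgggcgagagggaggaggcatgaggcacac
Gpr35, second start, chr1:92978653-92978902: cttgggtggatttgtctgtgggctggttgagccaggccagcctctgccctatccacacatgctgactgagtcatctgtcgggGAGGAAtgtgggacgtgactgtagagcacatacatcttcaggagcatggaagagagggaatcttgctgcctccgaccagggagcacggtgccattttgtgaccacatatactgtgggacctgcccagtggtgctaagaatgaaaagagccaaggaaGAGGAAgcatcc
Gpr146, first start, chr5:139377447-139377696: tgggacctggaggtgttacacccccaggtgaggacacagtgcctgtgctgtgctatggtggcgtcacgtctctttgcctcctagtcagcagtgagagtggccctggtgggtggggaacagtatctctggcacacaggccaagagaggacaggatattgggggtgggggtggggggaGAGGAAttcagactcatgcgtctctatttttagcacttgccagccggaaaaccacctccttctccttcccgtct
Gpr146, second start, chr5:139380389-139380638: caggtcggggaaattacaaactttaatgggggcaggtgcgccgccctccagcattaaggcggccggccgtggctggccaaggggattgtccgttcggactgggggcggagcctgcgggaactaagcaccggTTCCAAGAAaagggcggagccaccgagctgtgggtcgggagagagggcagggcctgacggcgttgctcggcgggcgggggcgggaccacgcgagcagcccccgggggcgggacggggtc
The NF-kB consensus had 0 matches in the 7 windows of these genes, against 7.25% of all 32851 windows in the table. A looser NF-kB form, GGG and CC with any 5 bases between them, matched in 4 of the 7 windows (start 2 of Cnr2, start 2 of Gpr35 and starts 2 and 3 of Gpr146) and is held by 45.8% of all windows, and it is not capitalised here. The STAT form occurred once, as TTCCAAGAA beginning 119 bases before the second start of Gpr146. Over all windows 7.02% held the STAT form. GAGGAA occurred in the second Gpr35 window at 168 and at 12 bases before the start, and in the first Gpr146 window at 74 bases before the start, and 23.3% of all windows held it. A match describes letters only, and which start these cells used was not measured.

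All values are log2 expression levels from the authors' deposited table, in which a difference of 1 is a 2-fold change. The array medians lay between 6.92 and 6.96, and 2 arrays of the same group had correlations of 0.992 to 0.997 across genes. A group mean under 5.61, the highest lower quartile of any array, is called dim below, and changes into that range are of uncertain size because the method compresses dim signals. All 10 macrophage markers, among them Csf1r, Adgre1 and Cd68, were measured and none was dim, and their mean on an array lay between 11.32 and 11.82. Of 6 measured T and NK cell markers, 3 to 5 were dim in each group. Of 5 measured B cell markers 0 to 2 were dim in each group. Group means of Ighm were 10.24 to 11.33, and those of Cd79a, Cd79b, Ms4a1 and Pax5 were 5.50 to 6.18. Among 5 mast cell and basophil markers 1 to 2 were dim in each group. Neutrophil markers were measured for 7 of 8 listed genes, and all 7 were lower without p50 when averaged over the stimuli (limma, Benjamini-Hochberg), with list means of 8.89 to 9.12 in IL10-/- arrays and 8.24 to 8.43 without p50. In this contrast, which the marker calls below share, 15.1% of all genes were called lower and 10.6% higher. Of 6 stromal markers 4 were lower without p50, with list means of 6.53 to 7.13 against 5.97 to 6.34. Of 5 measured dendritic cell markers only Itgax was called, higher by 2.71 ± 0.20 without p50, and 3 of the 5 were dim in every group, with list means of 5.99 to 6.22 against 6.55 to 6.85 without p50 and a median difference of 0.03. Of the 10 macrophage markers 2 were higher and 4 lower without p50, among them Mertk (0.98 ± 0.11), Cd68 (0.21 ± 0.05), Itgam (-0.67 ± 0.14) and Marco (-1.13 ± 0.18), with a list median of -0.03. In bulk RNA, fewer cells of a type and less RNA per cell cannot be told apart.

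Cnr2 (gene ID 12802, chromosome 4) was bright in unstimulated macrophages of both genotypes and low in every LPS-treated group. Its 1 probe set read 8.19 and 8.66 on the arrays of unstimulated IL10-/- cells, 5.23 and 5.80 after LPS, and 5.81 and 6.27 after LPS plus IL-10. Without p50 it read 8.28 and 8.16 unstimulated, 4.82 and 4.82 after LPS, and 5.12 and 4.97 after LPS plus IL-10. The 4 unstimulated arrays lay far above the other 8, and among the treated arrays every IL10-/- array lay above every array without p50.

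**Figure D1:**
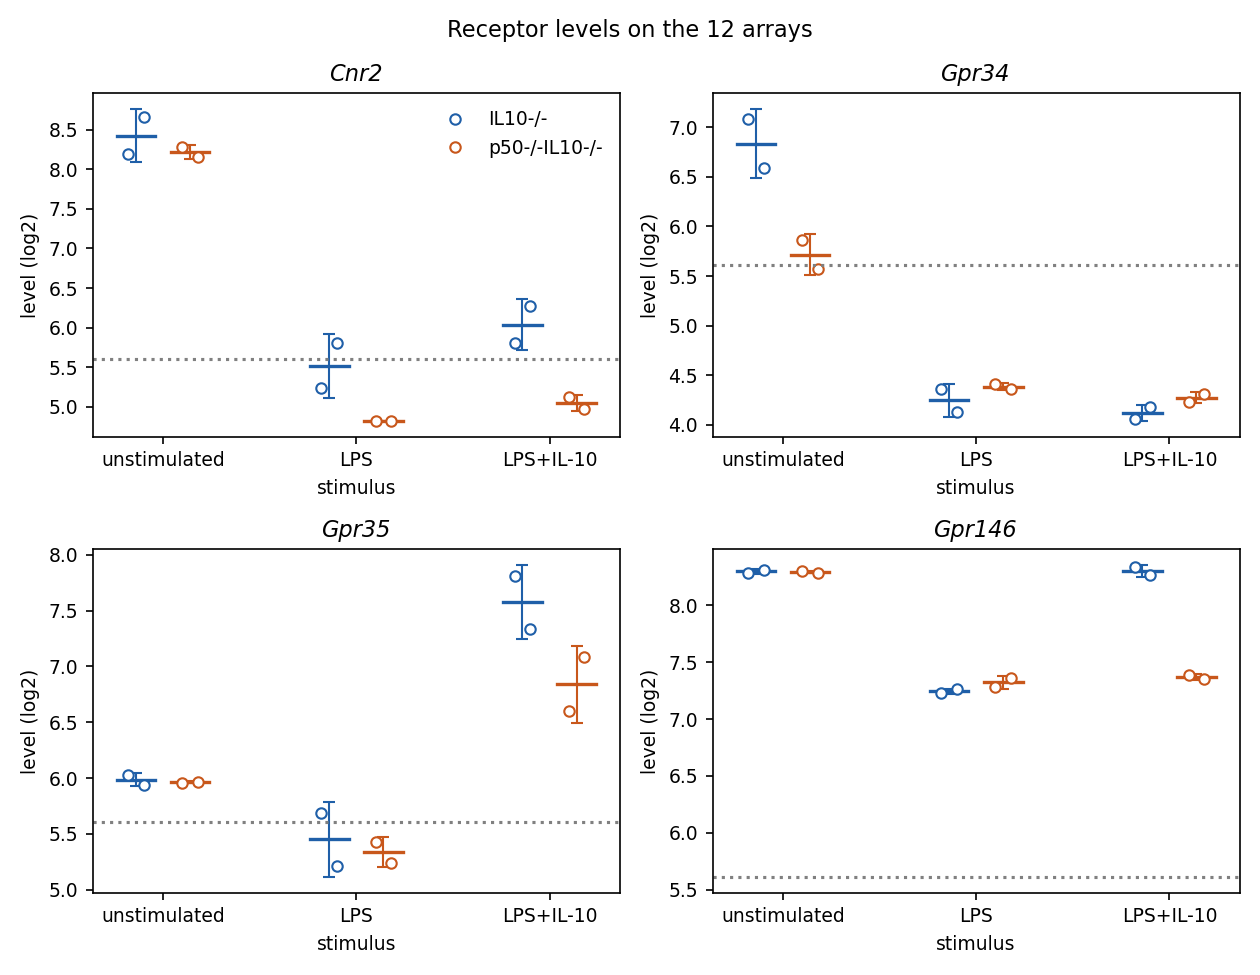
Log2 level of Cnr2, Gpr34, Gpr35 and Gpr146 (y axes) by stimulus (x axes) in IL10-/- (blue) and p50-/-IL10-/- cells (orange). Circles are the 2 arrays of a group, horizontal bars with whiskers the mean and SD, and the dotted line the dim limit of 5.61. Cnr2 reads 8.16 to 8.66 unstimulated and 6.27 or less on every treated array, and Gpr35 is highest on the 4 arrays with LPS and IL-10.

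In order of group means, Cnr2 read 8.43 ± 0.33 (SD, n = 2) in unstimulated IL10-/- cells and 8.22 ± 0.09 unstimulated without p50, and the arrays of these 2 groups overlapped. IL10-/- cells with LPS and IL-10 came next at 6.04 ± 0.32, then IL10-/- cells with LPS at 5.52 ± 0.40, then cells without p50 with LPS and IL-10 at 5.05 ± 0.10 and with LPS at 4.82 ± 0.0012. No other neighbours in this order overlapped, and the last 3 means were dim. The LPS difference that chose the gene was -2.91 ± 0.20 (SE, n = 2 arrays per group) in IL10-/- cells, 7.51-fold lower, and -3.40 ± 0.20 without p50, 10.6-fold lower. In each genotype only 1 of the 12393 genes had a larger decrease. Adding IL-10 to LPS left Cnr2 higher than LPS alone by 0.52 ± 0.20 in IL10-/- cells and by 0.23 ± 0.20 without p50, and lower than unstimulated cells by 5.23-fold and 9.02-fold.

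The arrays with LPS and IL-10, which played no part in choosing Cnr2, were tested against the average of LPS and no stimulus. That average holds the arrays that chose the gene, so the LPS decrease enters this measure beside the IL-10 difference. Were Cnr2 equal with LPS and with both agents, the measure would still be negative wherever LPS lowered it. Its adjusted p-values within a genotype are therefore no evidence of an IL-10 effect and no separate support for the LPS decrease. The arrays with LPS and IL-10 lay below that average by -0.93 ± 0.18 in IL10-/- cells (limma, adjusted p 0.00791) and by -1.47 ± 0.18 without p50 (limma, adjusted p 0.000362), against 8.93% and 20.5% of all genes called in either direction in these contrasts. Both treated arrays of each genotype lay on the LPS side. Without array 1 of IL10-/- cells with LPS and IL-10 the first difference was -0.70 with an adjusted p of 0.12, and a fit to the 3 IL10-/- groups alone gave an adjusted p of 0.0645. The genotype difference of this measure was -0.54 ± 0.25 (95% interval -1.09 to 0.02, adjusted p 0.305 by limma), with 0.767% of all genes called. With LPS and IL-10, Cnr2 was lower without p50 by -0.99 ± 0.20, 1.99-fold (limma, adjusted p 0.00854), where 18% of all genes were called. That call ended without array 2 of IL10-/- cells with LPS and IL-10 (-0.76, adjusted p 0.08) and without array 2 of p50-/-IL10-/- cells with LPS and IL-10 (-0.92, adjusted p 0.0653).

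Gpr34 (gene ID 23890, chromosome X) had group means above the dim range only in unstimulated cells, and there the arrays without p50 read lower. The 1 probe set read 7.08 and 6.59 in unstimulated IL10-/- cells, 4.37 and 4.13 after LPS, and 4.06 and 4.18 after LPS plus IL-10. Cells without p50 read 5.86 and 5.57 unstimulated, 4.41 and 4.36 after LPS, and 4.24 and 4.31 after LPS plus IL-10. All 8 treated arrays lay in the narrow range of 4.06 to 4.41, and the unstimulated arrays of the genotypes did not overlap.

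The order of means for Gpr34 began with unstimulated IL10-/- cells at 6.83 ± 0.35 (SD, n = 2) and unstimulated cells without p50 at 5.72 ± 0.20, each clear of the next. The 4 treated groups followed at 4.39 ± 0.03 (LPS, without p50), 4.27 ± 0.05 (LPS and IL-10, without p50), 4.25 ± 0.17 (LPS, IL10-/-) and 4.12 ± 0.08 (LPS and IL-10, IL10-/-), all dim. Among these the last 3 overlapped from neighbour to neighbour. The difference with LPS was -2.59 ± 0.15 (SE) in IL10-/- cells, 6.01-fold lower and number 4 among the decreases of all genes, and -1.33 ± 0.15 without p50, 2.51-fold lower and in place 171. The unstimulated arrays differed between the genotypes by -1.12 ± 0.15, while the difference at LPS was 0.14 ± 0.15. IL-10 added to LPS went with differences of -0.13 ± 0.15 in IL10-/- cells and -0.11 ± 0.15 without p50. Because the treated groups were dim, the sizes of the LPS differences and any order among treated groups are uncertain.

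For Gpr34 the arrays with LPS and IL-10 were tested against the average of LPS and no stimulus, which holds the arrays of the choice. The LPS decrease that chose the gene thus enters this measure, while the IL-10 differences were only -0.13 and -0.11. As for Cnr2, the adjusted p-values within a genotype are no evidence of an IL-10 effect and no separate support for that decrease. The arrays with LPS and IL-10 lay below that average by -1.42 ± 0.13 in IL10-/- cells (limma, adjusted p 8.471e-05) and by -0.78 ± 0.13 without p50 (limma, adjusted p 0.00297). Both arrays of each group lay on the LPS side. The genotype difference of this measure, 0.64 ± 0.19, did not pass the threshold (95% interval 0.23 to 1.06 unadjusted, adjusted p 0.146 by limma). With LPS and IL-10 the genotypes differed by 0.15 ± 0.15 (95% interval -0.19 to 0.49, adjusted p 0.522 by limma).

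Gpr35 (gene ID 64095, chromosome 1) was highest where IL-10 had been added to LPS, in both genotypes. Its 1 probe set read 6.02 and 5.94 in unstimulated IL10-/- cells, 5.69 and 5.21 after LPS, and 7.81 and 7.34 after LPS plus IL-10. The arrays without p50 gave 5.96 and 5.97 unstimulated, 5.43 and 5.24 after LPS, and 6.60 and 7.08 after LPS plus IL-10. The 4 arrays with IL-10 lay above the other 8, the LPS arrays lay below the unstimulated ones, and with IL-10 the arrays without p50 lay below those of IL10-/- cells.

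Ranked by mean, IL10-/- cells with LPS and IL-10 led for Gpr35 at 7.57 ± 0.33 (SD, n = 2), followed by the same treatment without p50 at 6.84 ± 0.35. Unstimulated cells read 5.98 ± 0.06 (IL10-/-) and 5.96 ± 0.01 (without p50) and overlapped. The LPS groups read 5.45 ± 0.34 (IL10-/-) and 5.34 ± 0.13 (without p50), overlapped as well and were dim. The IL-10 difference that chose the gene was 2.12 ± 0.20 (SE) in IL10-/- cells, 4.36-fold and number 5 among the increases of all genes, and 1.50 ± 0.20 without p50, 2.84-fold and in place 16. The effect was smaller without p50 by -0.62 ± 0.28, a value with no test because it uses the arrays of the choice. LPS alone went with -0.53 ± 0.20 in IL10-/- cells and -0.63 ± 0.20 without p50. Against unstimulated cells, LPS with IL-10 stood 3.02-fold higher in IL10-/- cells and 1.84-fold higher without p50.

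Unstimulated cells, which played no part in choosing Gpr35, gave a genotype difference of -0.02 ± 0.20 (95% interval -0.46 to 0.42, adjusted p 0.988 by limma, with 2.57% of all genes called), a sign that turned after a second quantile normalisation (0.01). The average of both LPS-treated groups lay above no stimulus by 0.53 ± 0.17 in IL10-/- cells (limma, adjusted p 0.0437, with 25.6% of all genes called). The 2 groups in that average lay on opposite sides of no stimulus. The group above was LPS with IL-10, whose arrays chose the gene. This call is therefore no test apart from the choice and no sign of an LPS effect. Omitting single arrays ended the call in 8 of the 12 cases, with adjusted p-values between 0.0138 and 0.214 over the 12. The 8 were those without either unstimulated array of either genotype, either LPS array without p50, array 1 of IL10-/- cells with LPS (0.41) or array 1 of IL10-/- cells with LPS and IL-10 (0.41). It also ended after a second quantile normalisation (0.51, adjusted p 0.0525) and in a fit to the 3 IL10-/- groups alone (adjusted p 0.0798). Without p50 the same measure was 0.12 ± 0.17 (95% interval -0.26 to 0.50, adjusted p 0.586 by limma, with 39.4% of all genes called). The 2 genotypes differed in it by -0.41 ± 0.24 (95% interval -0.94 to 0.13, adjusted p 0.493 by limma).

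Gpr146 (gene ID 80290, chromosome 5) read at its unstimulated level after LPS plus IL-10 in IL10-/- cells and near its LPS level without p50. The brighter of its 2 probe sets, used as its main one, read 8.28 and 8.31 in unstimulated IL10-/- cells, 7.23 and 7.26 after LPS, and 8.34 and 8.27 after LPS plus IL-10. Without p50 the arrays gave 8.30 and 8.29, then 7.28 and 7.36, then 7.39 and 7.35 for the same treatments. The arrays formed a high set at 8.27 to 8.34, which held the unstimulated cells and the IL10-/- cells with IL-10, and a low set at 7.23 to 7.39.

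**Figure D2:**
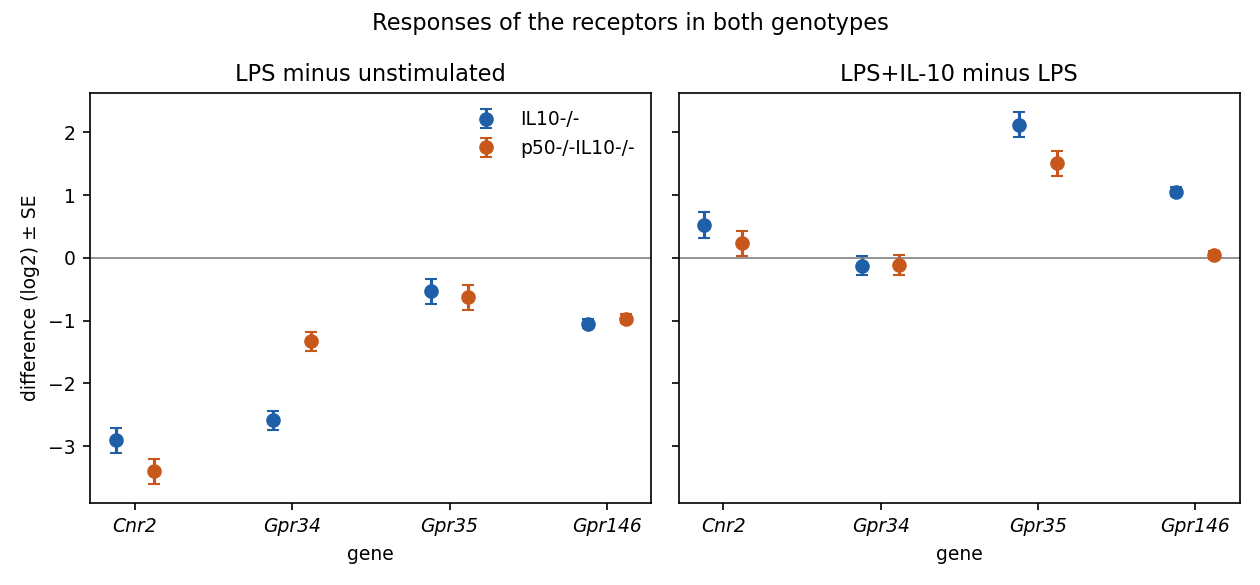
Log2 difference ± SE (y axis) of LPS against no stimulus (left) and of LPS with IL-10 against LPS (right) for the 4 genes (x axis), in IL10-/- (blue) and p50-/-IL10-/- cells (orange), 2 arrays per group. The LPS differences of Cnr2 are the largest at -2.91 and -3.40, and Gpr146 with IL-10 reads 1.06 in IL10-/- cells and 0.05 without p50.

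Means of Gpr146 were 8.30 ± 0.05 (SD, n = 2) in IL10-/- cells given both agents, 8.30 ± 0.02 in unstimulated IL10-/- cells and 8.29 ± 0.01 in unstimulated cells without p50, and these neighbours overlapped. After a gap of 0.93 came cells without p50 with LPS and IL-10 at 7.37 ± 0.03 and with LPS at 7.32 ± 0.06, which overlapped, and IL10-/- cells with LPS at 7.25 ± 0.02, which lay just below them. The IL-10 difference was 1.06 ± 0.07 (SE) in IL10-/- cells, 2.08-fold and in place 66 among the increases. It was 0.05 ± 0.07 without p50, or -0.01 with arrays centred on their medians. LPS alone went with -1.05 ± 0.07 in IL10-/- cells and -0.97 ± 0.07 without p50. The genotype difference of the IL-10 effect was -1.01 ± 0.10, with no test because the IL-10 effect chose the gene.

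A second probe set of Gpr146 read 6.53 and 6.56 in unstimulated IL10-/- cells, 5.86 and 5.66 after LPS, and 6.72 and 6.64 after LPS plus IL-10. Without p50 it gave 6.58 and 6.38 unstimulated, 6.02 and 5.92 after LPS, and 6.05 and 6.48 after LPS plus IL-10. The last pair spanned from the LPS arrays up to the unstimulated arrays of that genotype, so this probe set did not show the clean low set of the main one. Its IL-10 differences were 0.92 ± 0.13 in IL10-/- cells and 0.30 ± 0.13 without p50, which differed by -0.62 ± 0.19. Over the 12 arrays the probe sets correlated at r = 0.852, a description of arrays that share their groups.

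**Figure D3:**
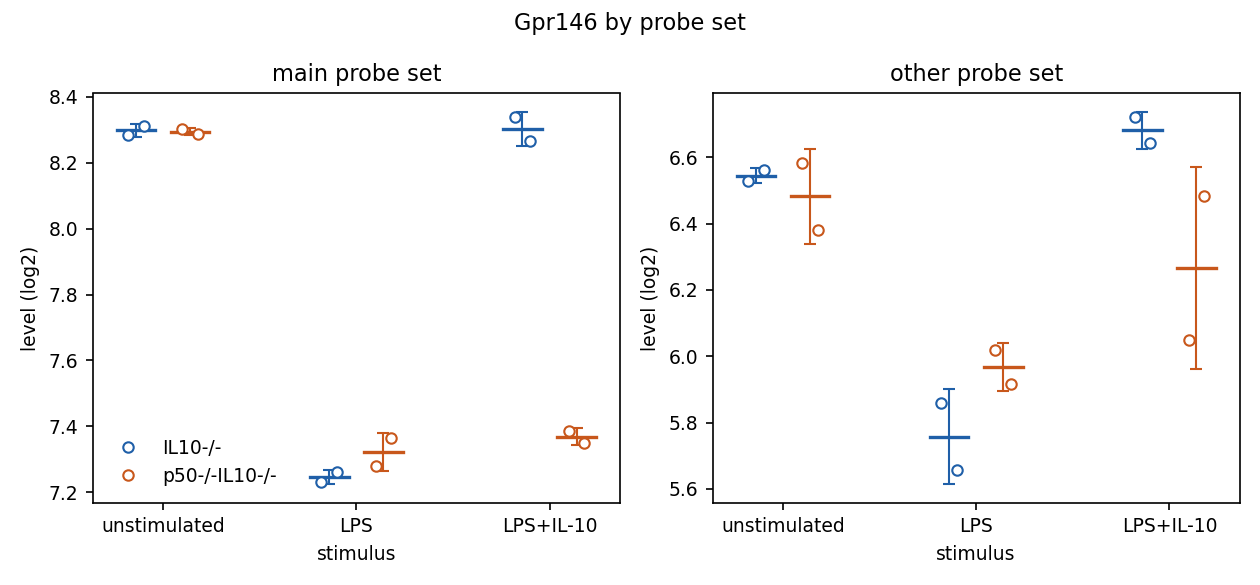
Log2 level of Gpr146 (y axes) by stimulus (x axes) on its main probe set (left) and its other probe set (right). Circles are arrays, bars with whiskers mean and SD, in IL10-/- (blue) and p50-/-IL10-/- cells (orange). The 2 arrays without p50 given LPS and IL-10 read 7.39 and 7.35 on the main probe set and 6.05 and 6.48 on the other.

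For Gpr146, tests compared the average of both LPS-treated groups, which holds the arrays of the choice, with no stimulus. The IL-10 difference thus enters this measure, and its genotype difference is no test apart from the choice. The LPS response alone differed between the genotypes by 0.08 ± 0.10 on the main probe set, a value with no test. On the main probe set the average was lower by -0.52 ± 0.06 in IL10-/- cells (limma, adjusted p 0.000114) and by -0.95 ± 0.06 without p50 (limma, adjusted p 1.104e-06). The genotype difference of this average against no stimulus was -0.42 ± 0.09 (95% interval -0.62 to -0.23, adjusted p 0.032 by limma), in a contrast where 2.42% of all genes were called. Omitting single arrays ended this call in 9 of the 12 cases, with differences of -0.45 to -0.40 and adjusted p-values of 0.0277 to 0.135, and held only without either LPS array of IL10-/- cells or array 2 of cells without p50 given LPS. With the other probe set the difference was -0.04 ± 0.16 (limma, adjusted p 0.947), and the response in IL10-/- cells was -0.33 ± 0.12 (limma, adjusted p 0.0642). Unstimulated cells of the genotypes differed by -0.00 ± 0.07 on the main probe set (95% interval -0.16 to 0.15, adjusted p 0.994 by limma).

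Averaged over the 3 stimuli, a contrast orthogonal to the stimulus differences, 3 of the 4 genes were lower without p50, where 15.1% of all genes were called lower and 10.6% higher. Cnr2 differed by -0.63 ± 0.12, 1.55-fold (limma, adjusted p 0.00296). At the single stimuli it differed by -0.20 unstimulated, -0.70 after LPS and -0.99 after LPS plus IL-10, each ± 0.20. Gpr146 differed by -0.29 ± 0.04 (limma, adjusted p 0.000534). By stimulus its differences were -0.00 unstimulated, 0.08 after LPS and -0.93 after both agents, each ± 0.07. Its other probe set gave -0.09 ± 0.08 (limma, adjusted p 0.458). Gpr34 differed by -0.28 ± 0.09 (limma, adjusted p 0.0428), with the unstimulated difference of -1.12 against 0.14 and 0.15 in the treated groups. That call ended with arrays centred on their medians (-0.27, adjusted p 0.0519) and on omission of any of 9 of the 12 arrays (-0.36 to -0.19, adjusted p 0.00671 to 0.118). It held without array 2 of unstimulated IL10-/- cells, array 1 of unstimulated cells without p50 or array 2 of IL10-/- cells with LPS. Gpr35 differed by -0.29 ± 0.11 (95% interval -0.54 to -0.04, adjusted p 0.0922 by limma), a difference that did not pass the threshold. It passed without array 2 of IL10-/- cells with LPS (-0.37, adjusted p 0.0356), or without array 2 of IL10-/- cells (-0.37, adjusted p 0.0411) or of p50-/-IL10-/- cells (-0.37, adjusted p 0.041) with LPS and IL-10. Neutrophil, stromal and macrophage markers and Itgax, with the values given above, also differed between the genotypes, and their part in these differences was not tested.

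**Figure D4:**
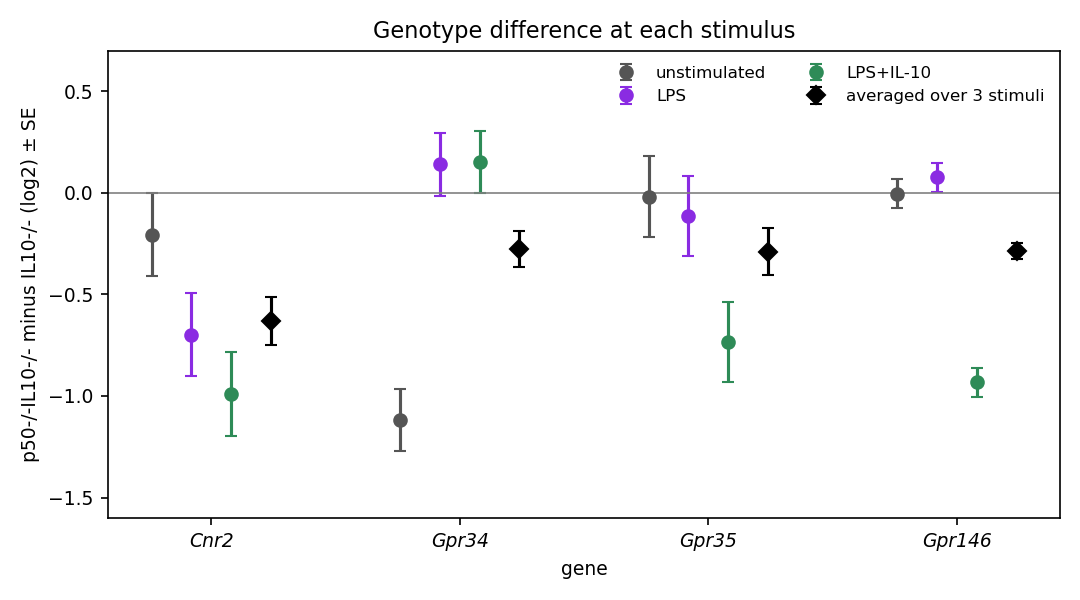
Genotype difference, p50-/-IL10-/- minus IL10-/- (y axis, log2 ± SE), of the 4 genes (x axis), unstimulated (grey), with LPS (purple), with LPS and IL-10 (green) and averaged over the 3 stimuli (black diamonds). Gpr34 reads -1.12 unstimulated and near 0 after either treatment, Gpr146 reads -0.93 with LPS and IL-10 and near 0 otherwise, and Cnr2 reads -0.20, -0.70 and -0.99.

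Cnr2 correlated with Gpr34 at r = 0.881 and with Gpr146 at r = 0.819, Gpr34 with Gpr146 at 0.611, Gpr35 with Gpr146 at 0.423, Cnr2 with Gpr35 at -0.05 and Gpr34 with Gpr35 at -0.23. These values describe arrays that share treatments. Searching the 1558 genes whose group means spanned at least 1 log2 for the closest profile over the 12 arrays, Cnr2 was most like Arhgap45 (r = 0.996), Ttc30b (0.991), Sbk1 (0.991), Kdm2b (0.990) and Vps26c (0.989). Arhgap45 read 9.47 unstimulated, 7.68 after LPS and 8.14 after both agents in IL10-/- cells, and 9.33, 7.39 and 7.52 without p50. Gpr34 was closest to Haus4 (0.967), Sgsh (0.965), Pag1 (0.961), Cytip (0.957) and Abhd15 (0.946). Cytip, a regulator of leukocyte adhesion, had like Gpr34 a lower unstimulated level without p50 (8.69 against 10.23). Gpr35 was closest to Il4ra (0.967), the interleukin 4 receptor chain, then Csf3r (0.949), the receptor of the granulocyte growth factor, and Cstf2 (0.947), Tmem268 (0.947) and Nsmce1 (0.940). Il4ra read 9.38, 8.90 and 11.30 in IL10-/- cells that were unstimulated, given LPS, and given LPS with IL-10, and 9.21, 8.26 and 10.62 without p50. Gpr146 was closest to Rab11fip5 (0.948), Hilpda (0.945), a lipid droplet protein, Rab3il1 (0.935), Hsd3b7 (0.935), an enzyme of bile acid synthesis, and Tbc1d14 (0.934). Rab11fip5 read 9.74, 7.13 and 8.80 over the same treatments in IL10-/- cells and 9.51, 6.58 and 7.30 without p50.

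Receptors related to the 4 genes were measured for Cnr1, P2ry12 and P2ry14. Cnr1, the cannabinoid receptor of neurons, had group means of 6.74 to 6.93, and none of its LPS, IL-10 or genotype differences passed the threshold in limma. P2ry12, the platelet and microglial ADP receptor from the branch of Gpr34, read 6.35 to 7.03 and likewise passed in none of these contrasts. P2ry14, a receptor of UDP-sugars in the same branch, was not called for LPS in either genotype (-0.01 ± 0.25 in IL10-/- cells, a sign that turned under both other scalings, and 0.60 ± 0.25 without p50, called with arrays centred on their medians at 0.73 and adjusted p 0.0452). IL-10 added to LPS went with -0.85 ± 0.25 in IL10-/- cells (limma, adjusted p 0.0798) and -0.97 ± 0.25 without p50 (limma, adjusted p 0.044). After LPS, P2ry14 was higher without p50 than in IL10-/- cells by 0.895 ± 0.25 (limma, adjusted p 0.0384). These 2 calls ended after a second quantile normalisation (limma, adjusted p 0.0652 and 0.0513). With an intensity trend and a robust prior they ended as well (limma, adjusted p 0.0653 and 0.0598). Leaving out single arrays also ended both. The genotype call after LPS ended in a fit to only the groups compared, too (limma, adjusted p 0.082). Averaged over the stimuli P2ry14 was higher without p50 by 0.65 ± 0.14 (limma, adjusted p 0.00679). P2ry13, Gpr55, Gpr18, Gpr174 and P2ry10 were not analysed here.

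Of 65 other receptors from 3 lists (lipid and metabolite, nucleotide and adenosine, and other orphan and adhesion receptors), LPS left 7 called higher and 5 lower in IL10-/- cells, where 7.76% and 17.1% of all genes were called. Without p50 it left 7 higher and 7 lower, against 10.3% and 22.1% of all genes. No LPS decrease among the 65 was as large as that of Cnr2 or, in IL10-/- cells, of Gpr34, for the lowest differences were those of S1pr1 at -1.17 in IL10-/- cells and Ptger2 at -2.16 without p50. Cnr2 and Gpr34 were chosen for such decreases and the 65 were not, so this comparison is no test. With arrays centred on their medians the counts were 11 higher and 4 lower in IL10-/- cells and 22 higher and 7 lower without p50, and among all called genes the share called higher went from 31.3% to 50.3% and from 31.7% to 57.8%. The median LPS differences of the 3 lists were 0.12, 0.06 and 0.03 in IL10-/- cells and 0.12, 0.14 and 0.03 without p50, beside -0.01 for all genes in both. The largest increases were in Gpr84, a receptor of medium-chain fatty acids (3.07 ± 0.22 in IL10-/- cells), and in Hcar2, the niacin and ketone body receptor (2.11 ± 0.27 in IL10-/- cells and 2.92 ± 0.27 without p50). Without p50 Gpr84 was higher by 2.45. Lpar1, a lysophosphatidic acid receptor, was higher by 1.94 in IL10-/- cells and by 2.69 ± 0.23 without p50. S1pr1, a sphingosine-1-phosphate receptor of cell traffic, was lower by -1.17 ± 0.11 and -1.13 ± 0.11 in the 2 genotypes. Among orphan receptors Gpr85 was higher by 1.81 ± 0.15 and 1.49 ± 0.15, and Gpr162 was lower by -0.93 ± 0.16 and -0.71 ± 0.16.

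**Figure D5:**
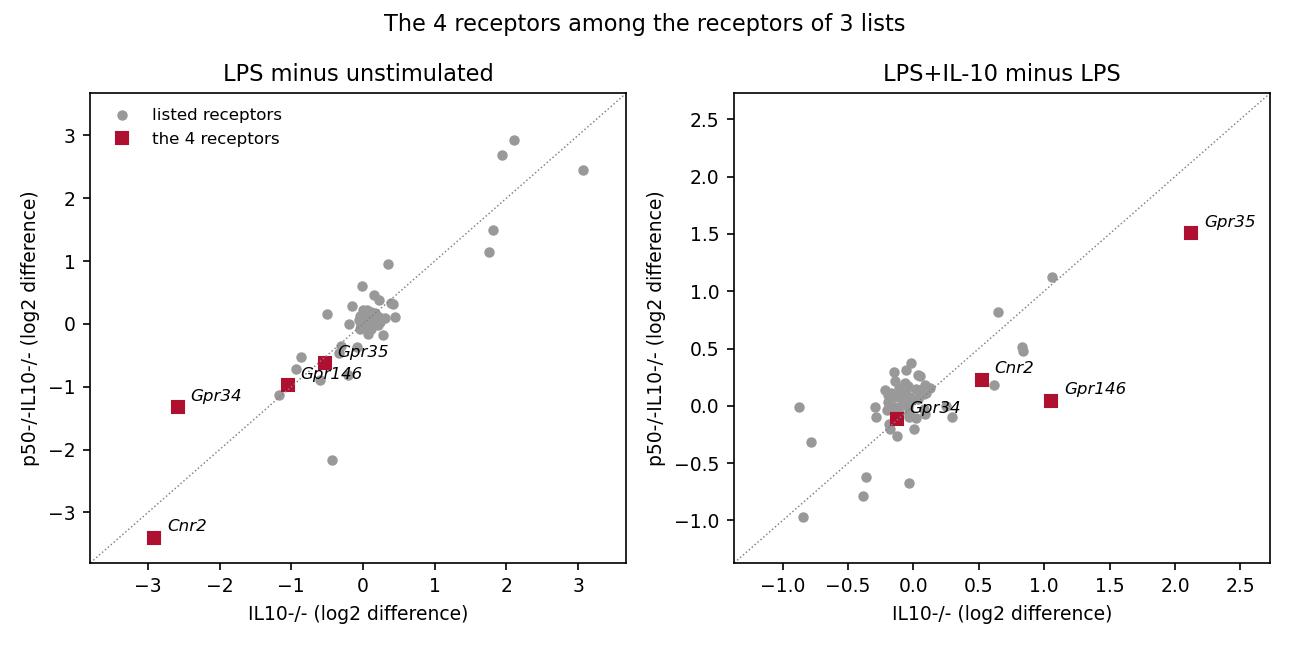
Log2 differences in IL10-/- (x axes) and p50-/-IL10-/- cells (y axes) for the 65 listed receptors (grey) and the 4 genes (red squares), for LPS against no stimulus (left) and LPS with IL-10 against LPS (right). The dotted line marks equal differences. Cnr2 lies lowest in the left panel (-2.91, -3.40), and Gpr35 lies furthest up and right in the right panel (2.12, 1.50). Cnr2 and Gpr34 were chosen by the differences on the left, and Gpr35 and Gpr146 by those on the right.

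With IL-10 added to LPS, 3 of the 65 receptors were called higher and 2 lower in IL10-/- cells, against 3.35% and 2.82% of all genes, and 4 higher and 2 lower without p50, against 3.7% and 2.87%. The highest was Ptger2, a prostaglandin E2 receptor, at 1.06 ± 0.21 and 1.13 ± 0.21, below the differences of 2.12 and 1.50 that chose Gpr35. Its call in IL10-/- cells ended without array 1 of the LPS group or either array with LPS and IL-10 (adjusted p 0.067 to 0.0802). Without p50 it ended without array 1 of the LPS group (0.74, adjusted p 0.0554) or of the group with LPS and IL-10 (0.91, adjusted p 0.0953). The median IL-10 differences of the 3 lists were -0.03, -0.04 and -0.08 in IL10-/- cells beside 0.01 for all genes, and 0.07, 0.07 and 0.07 without p50 beside 0.05. With arrays centred on their medians the share called higher among all genes called without p50 went from 56.3% to 34.8%. P2ry6, a receptor of uridine nucleotides, was in IL10-/- cells lower with LPS by -0.60 ± 0.08 and higher with IL-10 by 0.83 ± 0.08. Without p50 its differences were -0.90 ± 0.08 with LPS and 0.51 ± 0.08 with IL-10, the latter not called without array 1 of the LPS group (0.45, adjusted p 0.0581). Averaged over the stimuli, 4 of the 65 were higher and 6 lower without p50, against 10.6% and 15.1% of all genes, led by Hcar2 (1.00 ± 0.16) and Ptger2 (-1.35 ± 0.12).

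Enzymes that make or break down endocannabinoids and lysophosphatidylserine were measured for 15 of 17 listed genes. LPS left 3 higher and 2 lower in IL10-/- cells, and 3 higher and 3 lower without p50, with list medians of -0.05 and 0.01. Beside these counts, 7.76% of all genes were called higher and 17.1% lower in IL10-/- cells, and 10.3% and 22.1% without p50. Abhd4, of the N-acylethanolamine pathway, was lower by -0.59 ± 0.11 in IL10-/- cells and -0.65 ± 0.11 without p50, and Abhd12, the main lysophosphatidylserine lipase, by -0.59 ± 0.09 in IL10-/- cells. Abhd16a, which makes lysophosphatidylserine, was higher with LPS by 0.53 ± 0.08 without p50. IL-10 left 2 of the 15 higher and 0 lower in IL10-/- cells, and 1 higher and 0 lower without p50, where 3.35% and 2.82% and then 3.7% and 2.87% of all genes were called. Pla2g4a, the cytosolic phospholipase A2 that releases arachidonic acid, was higher with IL-10 by 1.66 ± 0.11 and 1.78 ± 0.11 in the 2 genotypes. Gdpd1, a lysophospholipase D, was lower without p50 by -1.85 ± 0.11 averaged over the stimuli.

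Of 24 measured G protein, arrestin and receptor kinase genes, LPS left 2 higher and 5 lower in IL10-/- cells, and 6 higher and 6 lower without p50, with list medians of 0.005 and 0.003 and the same shares of all genes as for the enzymes (7.76% and 17.1%, then 10.3% and 22.1%). Arrb2, which codes for an arrestin that ends receptor signalling, was lower with LPS by -1.07 ± 0.10 without p50, and averaged over the stimuli it was lower without p50 by -0.79 ± 0.06. Gnb4, a G protein beta subunit, was higher without p50 by 1.36 ± 0.11 over the stimuli. RGS genes, which code for proteins that switch G proteins off, were measured for 16 of 17 listed, and LPS left 1 higher and 4 lower in IL10-/- cells and 3 higher and 3 lower without p50, with list medians of 0.08 and 0.10, against the same 7.76% and 17.1%, then 10.3% and 22.1%, of all genes. With arrays centred on their medians 10 RGS genes were called without p50, as were 2502 genes higher and 1829 lower among all. Rgs2 was lower with LPS by -2.36 ± 0.17 and -1.43 ± 0.17 in the 2 genotypes. Rgs1 was lower with IL-10 by -2.57 ± 0.21 and -1.66 ± 0.21, and averaged over the stimuli it was higher without p50 by 1.29 ± 0.12.

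The differences of genes next to the 4 receptors were read from the same fit. Gpr34 lies within the span of Cask, a scaffold kinase gene, whose LPS differences of 0.15 and 0.29 were not called. Fuca1, beside Cnr2, was lower with LPS by -0.43 (limma, adjusted p 0.0486) in IL10-/- cells and -0.47 (limma, adjusted p 0.0255) without p50, beside -2.91 and -3.40 for Cnr2. Capn10, beside Gpr35, gave IL-10 differences of 0.15 and 0.32, neither called. Cox19, beside Gpr146, was lower with LPS by -0.25 (limma, adjusted p 0.0362) in IL10-/- cells and -0.47 (limma, adjusted p 0.000733) without p50, and higher with IL-10 by 0.40 (limma, adjusted p 0.00979) and 0.30 (limma, adjusted p 0.0419). Zfand2a, the next nearest measured gene to Gpr146, was lower with LPS by -1.68 and -2.33 in the 2 genotypes. With IL-10 it was higher by 0.51 (limma, adjusted p 0.0294) in IL10-/- cells, and without p50 its difference was 0.26 (limma, adjusted p 0.229). The genotype difference of its IL-10 effect, -0.26 ± 0.17, did not pass the threshold (limma, adjusted p 0.586).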

How the data were processed

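Per the labels' protocols RNA was hybridised to 12 arrays, and the authors deposited log2 levels of 22690 probe sets in 1 table. Per the submitters' processing notes RMA and limma were used, with versions and options not given. RMA corrects background, gives arrays a common distribution and compresses dim signals. The genome build of the probe annotation was not given in the sources used here.

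Leaving aside 64 control probe sets, 20380 named 1 gene, 691 several and 1555 none, and identifiers of 20351 matched the mouse gene table. Each gene took its probe set with the highest mean, which gave 12393 genes. Cnr2, Gpr34 and Gpr35 had 1 probe set each and Gpr146 had 2.

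Group means were fitted to all 12 arrays with limma 3.58.1 in R 4.3.3 (6 residual and 4.47 prior degrees of freedom). P-values were two-sided, adjusted by Benjamini-Hochberg over all genes of a contrast and called under 0.05, and intervals are unadjusted. With 2 arrays against 2, an exact permutation test reaches no p below 0.333. In simulated data of 12393 genes, changes were added to a small part of them for LPS in IL10-/- cells. Of the 2-fold changes 97% were called, and 11 genes with no change were called. The noise was drawn independently for each array, which deviations of the real arrays need not be, so the share may be too high.

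The 4 genes and the lists were chosen with earlier results of these data known. The rule for named genes took the 4 genes, up to 2 called genes with the largest difference per list, contrast and direction, 8 related receptors where measured and the 5 most similar genes per member. Of the list genes, mostly those whose calls withstood leaving out arrays are printed. The neighbouring genes were added after their values were seen. Alternatives covered scaling, probe sets, a filter, the spread estimate, the arrays fitted, the replicate number as a block and leaving out arrays. The number of arrays limits the precision.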

Additional observations from a re-analysis of the deposited data

Results flagged for a closer look

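By limma, the average of the 2 LPS-treated groups of Gpr146 against no stimulus differed between the genotypes on the main probe set. That average holds the arrays of the choice, so the IL-10 effect enters it. The LPS response alone differed by only 0.08 ± 0.10 (main probe set). The IL-10 effect, which chose the gene, differed by -1.01 ± 0.10, and neither value was tested. The call below therefore gives no support apart from the choice. On the main probe set the treated average against no stimulus was lower without p50 by -0.42 ± 0.09 log2 (SE, n = 2 arrays per group, adjusted p 0.032 by limma). That call depended on single arrays, as given above. On the other probe set the same difference was -0.04 ± 0.16 (limma, adjusted p 0.947), and the median of both gave -0.23 (limma, adjusted p 0.326). The same difference of Gpr35 was -0.41 ± 0.24 and did not pass the threshold (limma, adjusted p 0.493). For Cnr2 and Gpr34 the treated average holds the LPS difference that chose them, and it was not tested.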

How the results depend on the processing

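Scaling moved some values. With arrays centred on their medians the median LPS difference of all genes without p50 rose by 0.128 log2. LPS differences without p50 became -3.27 (Cnr2), -0.50 (Gpr35) and -0.84 (Gpr146), and that of Gpr146 in IL10-/- cells -0.96. IL-10 differences without p50 became -0.17 (Gpr34) and -0.0137 (Gpr146, a turned sign), and Gpr146 after both agents differed from unstimulated cells by 0.0793 and -0.86 in the 2 genotypes. The genotype average of Gpr34 was -0.27 (limma, adjusted p 0.0519). After a second quantile normalisation the LPS differences were -3.31 (Cnr2, without p50) and, for Gpr146, -0.93 and -0.81. IL-10 differences were 0.15 (Cnr2) and -0.16 (Gpr34) without p50 and 1.01 (Gpr146, IL10-/-). Gpr146 after both agents differed from unstimulated cells by 0.0801 and -0.81, the unstimulated genotype difference of Gpr35 turned to 0.0115, and its LPS-treated average in IL10-/- cells gave 0.51 (limma, adjusted p 0.0525). P2ry14 with LPS in IL10-/- cells gave 0.081 and 0.11 under these scalings.

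For Gpr146, the median of its probe sets gave -0.92 and -0.74 with LPS, 0.99 and 0.17 with IL-10, 0.0702 and -0.57 against no stimulus, and -0.23 for the genotype difference of the treated average (limma, adjusted p 0.326). Its other probe set gave -0.79 and -0.52, 0.92 and 0.30, 0.14 and -0.22, and -0.0398 (limma, adjusted p 0.947) for the same quantities. That probe set also gave a genotype average of -0.0896 (limma, adjusted p 0.458) and a treated average in IL10-/- cells of -0.33 (limma, adjusted p 0.0642). Fits to only the groups compared called 1914 genes for LPS, 283 for IL-10 and 682 for LPS with IL-10 against the average of the other groups in IL10-/- cells, and ended the calls of Cnr2 (-0.93, adjusted p 0.0645) and Gpr35 (0.53, adjusted p 0.0798) by limma. These fits have fewer arrays. The filter on dim genes removed Gpr34. The intensity trend with a robust prior changed no call of the 4 genes.

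Same-numbered arrays of the 15 pairs of groups correlated in their deviations at -0.492 to 0.595, over 0.1 in 10 and under -0.1 in 5. The 3 pairs within IL10-/- cells gave 0.398 to 0.595 and the pairs of p50-/-IL10-/- cells with LPS and IL-10 were all negative, so the number was not taken as a pairing. With the replicate number as a block over all groups no call of the 4 genes changed, and Gpr34's genotype average had an adjusted p of 0.0268 by limma. P2ry14 gained calls with LPS without p50 (0.60, adjusted p 0.0335) and with IL-10 in IL10-/- cells (-0.85, adjusted p 0.0244). With a replicate block within genotypes, the genotype difference of Cnr2 at LPS with IL-10 against the average of the others was called (-0.54, adjusted p 0.0286 by limma), and 258 genes in place of 95 were called in that contrast.

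Leaving out 1 array at a time gave ranges for the results it moved. These were -1.16 to -0.70 (Cnr2, LPS with IL-10 against the average of the others, IL10-/-), 0.16 to 0.30 (Cnr2, IL-10, without p50), -1.22 to -0.76 (Cnr2, genotype with LPS and IL-10), -0.45 to -0.40 (Gpr146, genotype difference of the treated average), -0.0187 to 0.0108 (Gpr146, genotype unstimulated), -0.36 to -0.19 (Gpr34, genotype average), 0.41 to 0.65 (Gpr35, treated average, IL10-/-), -0.37 to -0.21 (Gpr35, genotype average) and -0.06 to 0.0227 (Gpr35, genotype unstimulated). Counts of called genes ranged over 1950 to 3551 (LPS, IL10-/-), 426 to 1082 and 270 to 1085 (IL-10, in the 2 genotypes), 471 to 1153 and 868 to 3053 (LPS with IL-10 against the average of the others), 14 to 269 (its genotype difference), 1907 to 3635 and 3121 to 5224 (treated average), 72 to 554 (its genotype difference), 987 to 2642 (genotype with LPS and IL-10) and 101 to 381 (genotype unstimulated). Uncalled differences that changed sign were those of P2ry14 (-0.33 to 0.31) and Cnr1 (-0.0195 to 0.0294) with LPS in IL10-/- cells, and of P2ry12 with LPS without p50 (-0.25 to 0.58), with IL-10 in IL10-/- cells (-0.34 to 0.28) and in the genotype average (-0.017 to 0.26). The causes were not tested.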
